A study of Mus musculus with 23 samples.

Results

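Fatty acid oxidation enzymes were followed through the RNA of 33 genes, chosen by symbol as the enzymes and transporters that bring fatty acids into the mitochondrion and shorten them there or in the peroxisome. All 33 had a row in both count tables, which hold 12831 genes for quadriceps and 16962 for epididymal fat, and the low-count filter removed none of them. By place in the cell, 20 of the proteins work in the mitochondrion, 4 in both the mitochondrion and the peroxisome, 3 in the peroxisome alone and 1 at the plasma membrane, and 5 are acyl-CoA synthetases of the outer mitochondrial membrane, the ER or other membranes.

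The tissues came from male C57BL/6J mice that had surgery at 8 weeks of age. No tumor mice had a sham operation, KPC mice received cells of a mouse pancreatic cancer line with mutant Trp53 among its alleles injected into the pancreas, and KPC IL6KO mice received cells of the same line in which the gene for interleukin-6 (Il6) had been edited with CRISPR/Cas9. Each tumor line was 1 clone, KPC carrying a plasmid with a null guide, and the recipient mice themselves carried no edit. Quadriceps libraries, numbered 1 to 4, stand for 3 no tumor mice and 4 mice of either tumor group, and epididymal fat libraries, numbered 5 to 8, for 4 mice of each group, all killed when the KPC group had wasted. The different numbers were taken to mean different mice, which the titles do not state. The comparison of KPC with no tumor asks what the tumor does to the tissue, and the comparisons with KPC IL6KO ask how this depends on IL-6 made by the tumor cells. The paper reports larger tumors in KPC than in KPC IL6KO mice, without a correlation of tumor mass with muscle mass. Tumor size and the Il6 edit cannot be told apart in these comparisons. Because the edit was in the injected cells, Il6 in muscle or fat does not check the labels.

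In mitochondrial β-oxidation a fatty acid is first tied to coenzyme A by a synthetase, passes the inner membrane as a carnitine ester, and is then shortened from its carboxyl end in repeated rounds of dehydrogenation, hydration, dehydrogenation and thiolysis that yield acetyl-CoA. Peroxisomes run a like chain on very long and branched fatty acids, with an oxidase in place of the first dehydrogenase. Skeletal muscle burns fatty acids for work and during fasting, whereas white adipocytes mostly store and release them.

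Library totals ran from 19259763 to 74907810 counts in quadriceps and from 26306377 to 56308545 in fat, and levels are in CPM, counts divided by the TMM-adjusted total of their library. The 8 quadriceps fiber markers, Acta1, Ckm and Myh4 among them, summed to 175954 to 215273 CPM in no tumor, 152500 to 184172 CPM in KPC and 204186 to 218953 CPM in KPC IL6KO. Markers of other cells were also present in quadriceps, and their part in the results was not tested. The 8 adipocyte markers summed to 556 to 2725 CPM in no tumor, 155 to 1733 CPM in KPC and 215 to 653 CPM in KPC IL6KO, and the 4 neutrophil markers measured there to 0.359 to 0.779 CPM in no tumor, 4.50 to 21.8 CPM in KPC and 2.14 to 4.13 CPM in KPC IL6KO, with S100a9 and Retnlg at 0 in no tumor replicate 3 alone. The 5 macrophage markers summed to 75.6 to 101 CPM in no tumor, 32.4 to 124 CPM in KPC and 76.1 to 112 CPM in KPC IL6KO, and the 7 slow fiber markers to 81.8 to 328 CPM in no tumor, 70.3 to 914 CPM in KPC and 307 to 810.2 CPM in KPC IL6KO, ranges that overlapped between groups. Single macrophage markers differed in direction. Cd68 was at 4.16 to 79.5 CPM in KPC, above no tumor (2.90 to 3.69 CPM). Adgre1 was at 0.489 to 2.16 CPM in KPC, below no tumor (2.93 to 3.89 CPM). Csf1r, Mrc1 and Lyz2 overlapped between these 2 groups. In fat all 8 epididymis markers were detected, and Gpx5, a secreted protein of the epididymis, measured 39292, 52.2, 34256 and 4.81 CPM in no tumor, 28239, 40388, 24599.9 and 21347 CPM in KPC, and 85.8, 54957, 4.69 and 5.65 CPM in KPC IL6KO.

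The upstream sequences of 5 members that moved in KPC quadriceps are shown because several of them share a short motif. Acsl6 and Eci2 had the largest rises, Acsl5 the largest fall, and Acadvl and Echs1 hold the same motif as Acsl6. The capitals mark AGGTCA or its reverse complement TGACCT, the half-site read by many nuclear receptors, among them the PPARs and the estrogen-related receptors, which are known regulators of these genes. Each is the 250 bases before a RefSeq transcript start, from the GRCm38.p6 assembly and on the strand of the gene.
Acsl6 (chr11:54303574-54303823, plus strand): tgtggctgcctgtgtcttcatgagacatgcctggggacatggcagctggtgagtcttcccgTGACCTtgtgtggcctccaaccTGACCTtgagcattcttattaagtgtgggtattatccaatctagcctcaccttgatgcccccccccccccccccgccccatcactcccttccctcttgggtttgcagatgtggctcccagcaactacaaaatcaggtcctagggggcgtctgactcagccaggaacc
Eci2 (chr13:34994145-34994394, minus strand): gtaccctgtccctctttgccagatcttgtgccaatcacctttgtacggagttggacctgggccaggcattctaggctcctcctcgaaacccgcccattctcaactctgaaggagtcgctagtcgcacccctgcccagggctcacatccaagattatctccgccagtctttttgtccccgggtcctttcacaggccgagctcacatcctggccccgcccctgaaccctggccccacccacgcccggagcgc
Acsl5 (chr19:55253119-55253368, plus strand): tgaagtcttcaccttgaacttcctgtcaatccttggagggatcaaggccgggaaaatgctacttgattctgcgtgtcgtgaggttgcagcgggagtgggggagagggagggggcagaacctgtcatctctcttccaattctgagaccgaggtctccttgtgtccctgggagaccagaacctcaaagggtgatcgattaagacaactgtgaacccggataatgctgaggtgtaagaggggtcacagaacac
Acadvl (chr11:70015429-70015678, minus strand): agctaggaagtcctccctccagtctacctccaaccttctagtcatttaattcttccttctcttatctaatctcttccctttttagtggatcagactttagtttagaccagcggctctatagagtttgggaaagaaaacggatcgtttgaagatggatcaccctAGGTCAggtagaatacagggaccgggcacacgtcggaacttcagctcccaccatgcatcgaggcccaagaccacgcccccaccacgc
Echs1 (chr7:140116422-140116671, minus strand): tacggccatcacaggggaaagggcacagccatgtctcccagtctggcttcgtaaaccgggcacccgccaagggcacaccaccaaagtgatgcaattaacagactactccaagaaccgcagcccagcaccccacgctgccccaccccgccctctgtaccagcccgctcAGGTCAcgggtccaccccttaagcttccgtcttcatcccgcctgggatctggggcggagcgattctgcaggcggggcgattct

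Acsl6 has 3 windows in the RefSeq table, and the 1 shown is the 1 that holds the motif. In it the half-site lies 189 and 167 bases before the start, in the window of Acadvl 87 bases and in that of Echs1 83 bases before it. The Eci2 and Acsl5 windows hold none. Of the 33 members, 26 had a window in the RefSeq table, and 4 of their 29 windows held AGGTCA on either strand within the 250 bases before the start (13.8%, Acadm, Acadvl, Acsl6 and Echs1). Over all 32851 windows of the table the share was 14.02%. The longer TCAAGGTCA, which contains the half-site and is the element of estrogen-related receptors, stood in that Acsl6 window alone of the members' windows and in 0.387% of all windows. These are matches of letters and not binding sites.

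In quadriceps of KPC mice the oxidation genes did not move as 1 block. At a false discovery rate (FDR) of at most 0.05 and a fold change (FC) of at least 1.5 against no tumor, 8 members rose (Acsl6, Eci2, Mlycd, Echs1, Acsl3, Acadl, Acadvl and Acadsb), 2 fell (Acsl5 and Acaa2) and 23 passed neither way. In the whole table, 3428 of 12831 genes (26.7%) were called higher and 3719 (29%) lower, so the share of members that rose was near the background and the share that fell was below it. Over the 33 members 18 log2 FC were above 0 and 15 below, with a median of 0.18, beside -0.03 over all genes. Leaving out 1 library moved the members' median from 0.07 (without KPC replicate 3) to 0.31 (without no tumor replicate 1). The FDR alone was met by 15 members, and by at least the 26.7% and 29% of all genes that were called. Groups did not overlap in 13 members, a smaller share than the 65.3% of all genes. Summed over the 33 genes, the level was 4608 to 5509.8 CPM in no tumor, 5739 to 7329 CPM in KPC and 4976 to 6476 CPM in KPC IL6KO, so every KPC library lay above every no tumor library. Fewer fibers and less RNA per fiber cannot be told apart in such tissue extracts.

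**Figure D1:**
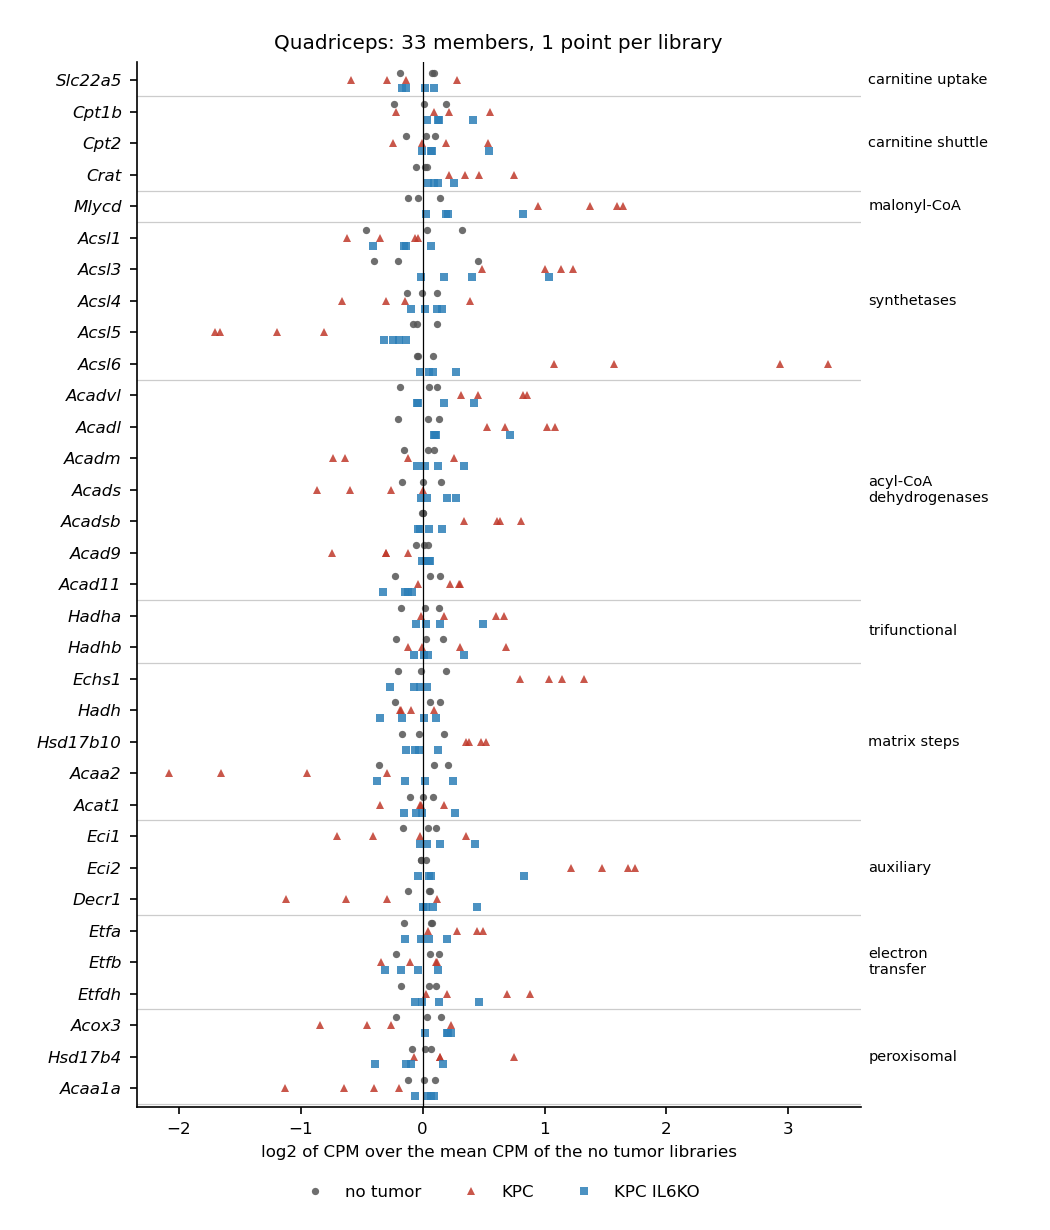
Each point is 1 quadriceps library and the x axis is the log2 of its CPM over the mean CPM of the 3 no tumor libraries, for 33 members ordered by role. The 4 KPC libraries of Acsl6, Eci2, Mlycd and Echs1 lie to the right of all others and those of Acsl5 to the left. The KPC IL6KO libraries of these genes lie near 0 except replicate 3 of Eci2 (111 CPM) and of Mlycd (209 CPM), which lies to the right.

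Fatty acids are activated by the long-chain acyl-CoA synthetases, and here the changes were largest in both directions. Acsl6 (chr11:54303798-54364756), a synthetase best known from brain, measured 23.6, 23.5 and 25.8 CPM in no tumor, 186, 72.1, 244 and 51.2 CPM in KPC, and 25.8, 29.4, 23.9 and 25.2 CPM in KPC IL6KO. All 4 KPC libraries lay above the other 7, and they spread widely, replicate 4 being lowest and replicate 3 highest. The rise over no tumor was 5.69-fold (log2 FC 2.51 ± 0.45, FDR = 0.000475, edgeR quasi-likelihood test, as for every FDR here, with ± SE).

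Acsl3 (chr1:78657825-78707743), which serves the growth of lipid droplets, stood at 19.4, 16.9 and 30.6 CPM in no tumor, 48.9, 31.3, 52.4 and 44.7 CPM in KPC, and 29.5, 25.2, 22.1 and 45.8 CPM in KPC IL6KO. The KPC libraries were above no tumor (log2 FC 1.00 ± 0.28, FDR = 0.00796) but KPC IL6KO replicate 4 reached their level. Reads near the start of Acsl3 fall in a stretch shared with Utp14b, so its count is less certain. Acsl5 (chr19:55251938-55297720), the synthetase of intestine and liver mitochondria, went the other way, with 9.26, 10.4 and 9.07 CPM in no tumor, 3.02, 5.46, 4.19 and 2.94 CPM in KPC, and 8.71, 7.68, 8.37 and 8.09 CPM in KPC IL6KO. Its KPC libraries were all below the rest, and the fall was 2.46-fold (log2 FC -1.30 ± 0.20, FDR = 0.000151).

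Acsl1, the main synthetase of muscle and fat, had a log2 FC of -0.25 ± 0.20, FDR = 0.274, with 443, 539.6 and 312 CPM in no tumor and 339, 420.3, 281 and 412 CPM in KPC. Acsl4, which prefers arachidonic acid, had -0.13 ± 0.20, FDR = 0.582. Neither was called and the groups overlapped in both. Per kilobase of exon, Acsl1 made up 86.6% ± 4.97 (SD) of the 5 synthetases in no tumor, 70.4% ± 13.2 in KPC and 84.2% ± 3.98 in KPC IL6KO. The share of Acsl6 was 3.33% ± 0.919 in no tumor, 17.4% ± 11.6 in KPC and 3.71% ± 0.489 in KPC IL6KO, so Acsl1 remained the most abundant of the family in each group mean. These shares are descriptions, and no test was run on them.

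**Figure D2:**
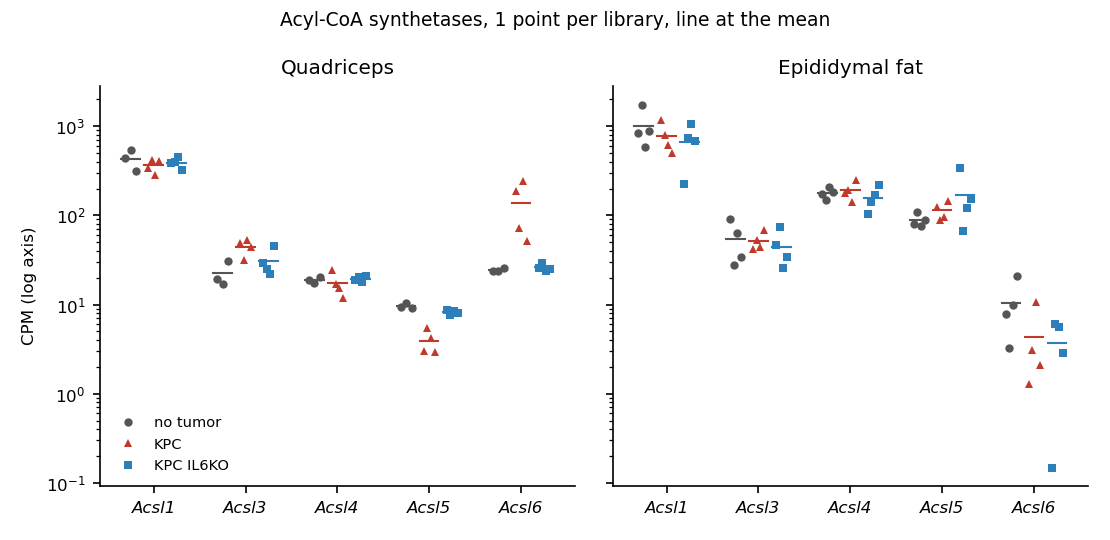
CPM on a log axis of the 5 long-chain acyl-CoA synthetases, 1 point per library with a line at the group mean, in quadriceps (left) and epididymal fat (right). In quadriceps the KPC points of Acsl6 (51.2 to 244 CPM) lie above and those of Acsl5 (2.94 to 5.46 CPM) below all others, and in fat the 3 groups overlap for each gene.

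Of the members that serve entry into the mitochondrion, 1 was called, the enzyme that removes an inhibitor of this entry. Mlycd (chr8:119394878-119411102), malonyl-CoA decarboxylase, destroys the malonyl-CoA that blocks carnitine palmitoyltransferase 1. It measured 130.1, 115 and 108 CPM in no tumor, 355, 227, 367 and 306 CPM in KPC, and 135, 136, 209 and 120.3 CPM in KPC IL6KO. The KPC libraries lay above all others and the rise was 2.66-fold (log2 FC 1.41 ± 0.21, FDR = 0.000132). Crat, carnitine acetyltransferase, had KPC libraries above no tumor without overlap (875, 802, 1155 and 949 against 697, 706 and 664 CPM), but at 1.37-fold it stayed under the FC limit (FDR = 0.00772).

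Of the carnitine palmitoyltransferases, the members Cpt1b and Cpt2 were not called, whereas Cpt1a, which is not a member, fell and is given below. Cpt2, on the inner membrane, had a log2 FC of 0.15 ± 0.18, FDR = 0.497, and Slc22a5, the carnitine transporter of the plasma membrane, one of -0.15 ± 0.18, FDR = 0.468. Cpt1b, the muscle form of the rate-limiting step, measured 8.00, 7.07 and 5.94 CPM in no tumor, 6.01, 7.48, 10.3 and 8.13 CPM in KPC, and 7.68, 7.66, 9.35 and 7.19 CPM in KPC IL6KO (log2 FC 0.18 ± 0.19, FDR = 0.405 in KPC). Its level per kilobase was 2.42 CPM in no tumor, against 38.9 for Cpt2 and 179.7 for Crat. The annotation places the whole of Cpt1b inside the longer noncoding gene Gm44502, which was in neither table, so the count of Cpt1b is uncertain.

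Among the 7 acyl-CoA dehydrogenases, which open each round by making a double bond, Acadvl, Acadl and Acadsb rose and the other 4 were not called. Acadvl (chr11:70010183-70015411), for very long chains, measured 468, 448 and 381 CPM in no tumor, 537, 593, 781 and 767 CPM in KPC, and 420.0, 489, 577 and 418 CPM in KPC IL6KO. Acadl (chr1:66830839-66863277), for long chains, measured 284, 268 and 225 CPM in no tumor, 413, 374, 525 and 549 CPM in KPC, and 278, 279, 425 and 277 CPM in KPC IL6KO. In both genes the KPC libraries were above no tumor, and in both KPC IL6KO replicate 3 reached into the KPC range. The log2 FC was 0.63 ± 0.17, FDR = 0.00570 for Acadvl and 0.85 ± 0.19, FDR = 0.00209 for Acadl. The call of Acadvl rests on an FC just over the limit (1.55) and was lost without no tumor replicate 3, KPC replicate 3 or KPC replicate 4 (log2 FC 0.55 to 0.56).

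Acadsb (chr7:131410601-131448944), which acts on short branched acyl groups from isoleucine, was the steadiest gene of the class in no tumor, with 109.5, 109.7 and 109 CPM in no tumor, 192, 168, 139 and 170.2 CPM in KPC, and 106, 108, 114 and 122 CPM in KPC IL6KO. All KPC libraries were above the rest (log2 FC 0.61 ± 0.11, FDR = 0.000585), and this call also ended under a replicate block (0.58), with at least 10 counts in every library (0.58) and without KPC replicate 1 (0.54), because the FC of 1.53 is close to the limit. The medium-chain enzyme Acadm had a log2 FC of -0.25 ± 0.21, FDR = 0.306, and the short-chain enzyme Acads one of -0.39 ± 0.18, FDR = 0.0702. Acad9, an assembly factor of respiratory complex I as well as a dehydrogenase, had KPC libraries below no tumor without overlap but at 1.27-fold (log2 FC -0.35 ± 0.13, FDR = 0.0279). Acad11, for very long and hydroxylated chains, had 0.20 ± 0.12, FDR = 0.157.

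The later steps of the mitochondrial round moved in opposite directions. Echs1 (chr7:140105710-140116476), short-chain enoyl-CoA hydratase, measured 128, 148 and 113 CPM in no tumor, 286, 226, 323 and 266 CPM in KPC, and 107, 127, 133 and 123 CPM in KPC IL6KO. The KPC libraries were above all others and the rise was 2.13-fold (log2 FC 1.09 ± 0.14, FDR = 5.09e-05). In the annotation Echs1 shares 687 bases with Paox, and what this adds to its count was not tested. Acaa2, the medium-chain 3-ketoacyl-CoA thiolase that closes the round, measured 251, 232 and 170.0 CPM in no tumor, 51.5, 112, 69.2 and 178 CPM in KPC, and 197, 219.8, 259 and 167 CPM in KPC IL6KO. Here KPC replicate 4 lay within the no tumor range and the other 3 KPC libraries below it. The fall was 2.12-fold (log2 FC -1.08 ± 0.34, FDR = 0.0144). Without no tumor replicate 1 the FDR of Acaa2 was 0.0554 and the call was lost, whereas without KPC replicate 4 its log2 FC was -1.48.

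The trifunctional protein, which handles long chains after the first step, was measured by both subunits. Hadha had a log2 FC of 0.39 ± 0.19, FDR = 0.0846 and Hadhb one of 0.25 ± 0.19, FDR = 0.255. The RefSeq starts of these 2 genes lie 273 bases apart on chromosome 5 and point away from each other, and KPC replicates 3 and 4 were the upper pair in both, with 394, 449, 602 and 632 CPM for Hadha and 205, 221, 357 and 275 CPM for Hadhb over KPC replicates 1 to 4. Of the short-chain enzymes, Hadh had -0.09 ± 0.14, FDR = 0.587 and Acat1, the thiolase of ketone body and isoleucine metabolism, -0.04 ± 0.14, FDR = 0.798. Hsd17b10, a 3-hydroxyacyl-CoA dehydrogenase that also forms part of mitochondrial RNase P, had KPC libraries above the other groups (59.03, 65.97, 59.8 and 64.1 against 45.2, 52.1 and 40.9 CPM in no tumor) at 1.35-fold (FDR = 0.00391).

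Unsaturated fatty acids need auxiliary enzymes to move or remove their double bonds. Eci2 (chr13:34977748-35027096), an enoyl-CoA isomerase of both mitochondria and peroxisomes, measured 63.5, 61.8 and 61.8 CPM in no tumor, 173, 145, 209 and 201 CPM in KPC, and 65.3, 60.9, 111 and 64.5 CPM in KPC IL6KO. Every KPC library was above every other library, and the rise of 2.92-fold was the second largest among members (log2 FC 1.54 ± 0.21, FDR = 6.86e-05). KPC IL6KO replicate 3 stood apart from the other 3 libraries of its group. The purely mitochondrial isomerase Eci1 had a log2 FC of -0.14 ± 0.21, FDR = 0.580, and the dienoyl-CoA reductase Decr1 one of -0.41 ± 0.23, FDR = 0.132. The KPC mice differed among themselves: replicate 1 was the lowest and replicate 4 the highest KPC library in Acaa2, Acadm, Acads, Eci1 and Decr1. The same order held in Cpt2, Hadha, Acat1, Etfa and Etfdh, and in none of the other members. Among the fiber markers, Myh2, the myosin of fast oxidative fibers, measured 1719.8, 1515 and 747 CPM in no tumor, 90.1, 391, 188 and 1184 CPM in KPC, and 1139, 1396, 1402 and 861 CPM in KPC IL6KO and Mb, myoglobin, 2381, 2208 and 1465 CPM in no tumor, 505, 1225, 972 and 2199 CPM in KPC, and 2044, 2600.0, 2796 and 1959 CPM in KPC IL6KO. Both were lowest in replicate 1 and highest in replicate 4 of KPC as well, and so was Myh1. The other fiber markers were not: among KPC libraries Myh4, Tnnt3 and Atp2a1 were highest in replicate 1, and Acta1 and Ckm in replicate 2. The part of the fiber makeup in these values was not tested.

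Electrons from the dehydrogenases pass through electron transfer flavoprotein to ubiquinone. Its subunits Etfa and Etfb had log2 FC of 0.33 ± 0.13, FDR = 0.0412 and -0.04 ± 0.15, FDR = 0.813. Its oxidoreductase Etfdh was at the FDR limit (0.49 ± 0.20, FDR = 0.0501), and the KPC libraries ran from 158 to 285 CPM against 137 to 168 CPM in no tumor.

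None of the 3 purely peroxisomal members was called against no tumor. Acox3, an oxidase that starts the breakdown of branched chains, measured 28.6, 30.98 and 23.97 CPM in no tumor, 20.3, 32.7, 15.6 and 23.2 CPM in KPC, and 32.02, 32.2, 32.8 and 28.2 CPM in KPC IL6KO (log2 FC -0.28 ± 0.20, FDR = 0.233 in KPC). Hsd17b4, the bifunctional enzyme of the next steps, measured 67.4, 69.6 and 62.7 CPM in no tumor, 73.4, 73.3, 63.4 and 112 CPM in KPC, and 62.2, 60.6, 74.6 and 50.7 CPM in KPC IL6KO (log2 FC 0.27 ± 0.19, FDR = 0.207). Groups overlapped in both genes. Acaa1a, the peroxisomal thiolase, measured 48.2, 51.5 and 44.2 CPM in no tumor, 30.6, 41.95, 21.9 and 36.3 CPM in KPC, and 49.2, 50.4, 51.02 and 45.99 CPM in KPC IL6KO, and its KPC libraries were below all 7 others. Its fall of 1.47-fold against no tumor met the FDR (-0.55 ± 0.17, FDR = 0.0143) but not the FC limit, and it was called under a replicate block (log2 FC -0.59) and without no tumor replicate 3 (-0.61), KPC replicate 2 (-0.70) or KPC replicate 4 (-0.61). Reads of Acaa1a and its near-identical copy Acaa1b may not be told apart. Summed over the 3 genes, the level was 131 to 152 CPM in no tumor, 101 to 172 CPM in KPC and 125 to 158 CPM in KPC IL6KO.

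By place, 4 of the 20 mitochondrial members rose and 1 fell in KPC, with a median log2 FC of 0.16, and 0 of the 3 peroxisomal members were called, with a median of -0.28. Of the 4 members found in both organelles (Crat, Mlycd, Acad11 and Eci2) all 4 log2 FC were above 0 and 2 were called, with a median of 0.94. Their summed level was 909 to 989 CPM in no tumor, 1283 to 1817 CPM in KPC and 989.6 to 1225 CPM in KPC IL6KO, without overlap of KPC with either other group. Of the 5 synthetases 2 rose and 1 fell. Of all genes 26.7% were called higher and 29% lower, and the difference between organelles was not tested.

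**Figure D3:**
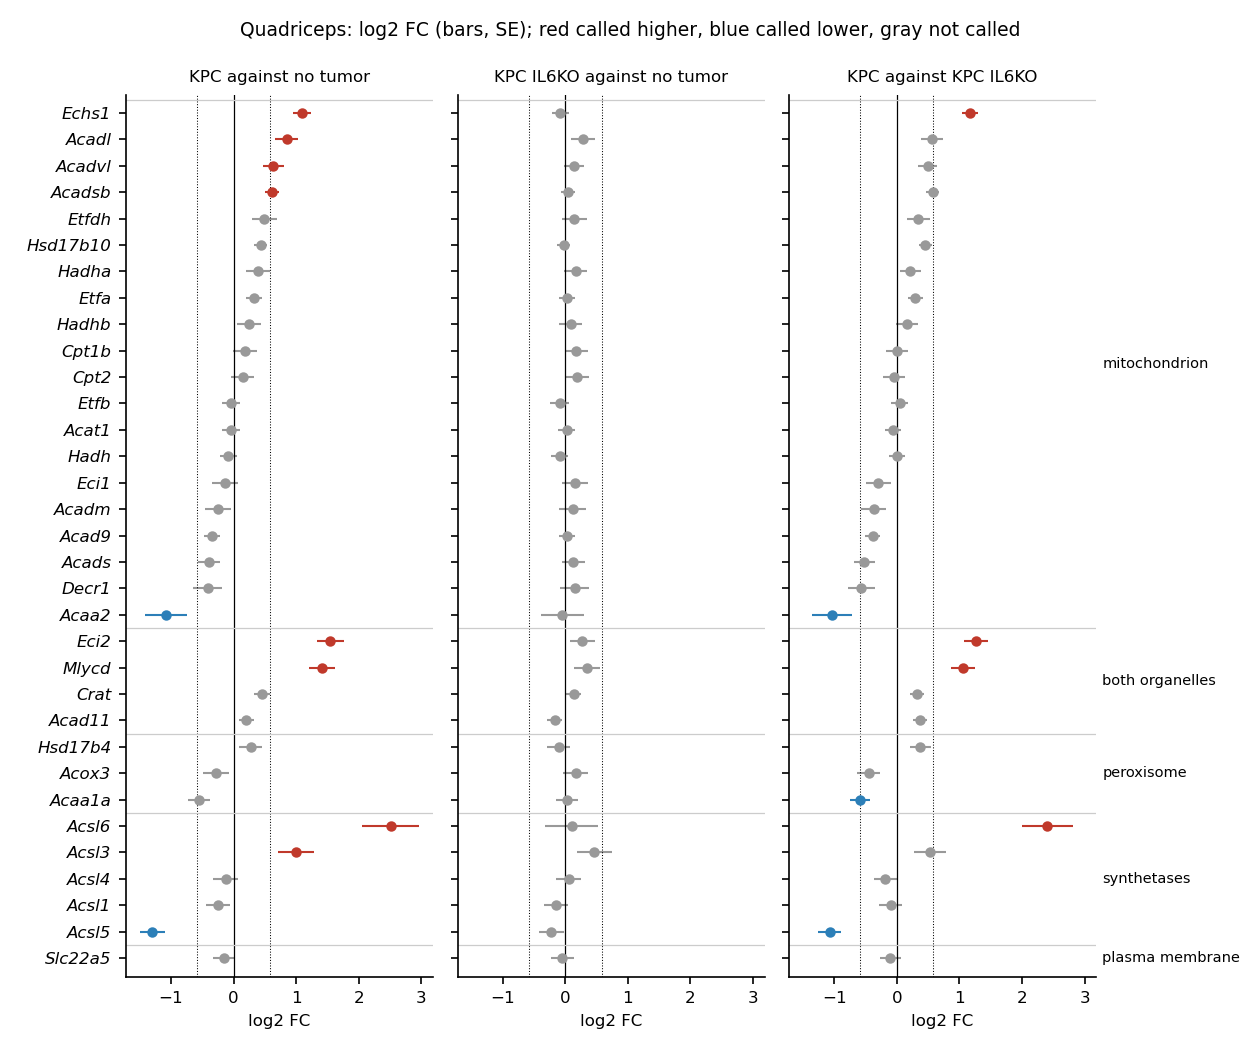
Log2 FC of the 33 members in quadriceps for the 3 comparisons, with bars of 1 SE and dotted lines at an FC of 1.5. Members are grouped by place in the cell and, within a place, ordered by the log2 FC of KPC against no tumor. Against no tumor KPC has 8 red (higher) and 2 blue (lower) members, KPC IL6KO has none, and KPC against KPC IL6KO has 4 and 3.

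Further genes of fatty acid handling, 37 in number, gave the setting of these changes in quadriceps. Of these, 7 rose and 12 fell in KPC, shares near the 26.7% and 29% of all genes. The acyl-CoA thioesterases Acot1 and Acot2, which release free fatty acids in the cytosol and the mitochondrion respectively, were the highest by log2 FC together with Pdk4, the kinase that shuts pyruvate out of the mitochondrion. Acot1 measured 0.797, 0.764 and 0.768 CPM in no tumor, 13.03, 11.3, 32.01 and 53.4 CPM in KPC, and 1.48, 1.05, 7.88 and 1.41 CPM in KPC IL6KO (log2 FC 5.14 ± 0.90, FDR = 0.000357 in KPC). Acot2 measured 10.9, 8.56 and 8.71 CPM in no tumor, 93.9, 80.1, 136 and 138 CPM in KPC, and 13.8, 12.5, 35.3 and 11.95 CPM in KPC IL6KO (3.57 ± 0.41, FDR = 1.96e-05). Pdk4 measured 637, 273 and 419 CPM in no tumor, 6002, 4554, 5015 and 5304 CPM in KPC, and 1067, 443, 1610.2 and 524 CPM in KPC IL6KO (3.56 ± 0.47, FDR = 4.89e-05). KPC libraries lay above all others for each of the 3 genes. Ucp3, an uncoupling protein, also rose (log2 FC 1.89), as did Cd36, a fatty acid transporter (1.19), Ppard, a nuclear receptor of fatty acids (0.69), and Acacb, which makes the malonyl-CoA that Mlycd destroys (1.88 ± 0.17, FDR = 3.73e-06).

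The lowest were Abcd2, Ppargc1b and Acaa1b. Abcd2, a peroxisomal transporter of very long chains, measured 66.2, 78.3 and 62.4 CPM in no tumor, 5.59, 16.5, 2.91 and 4.63 CPM in KPC, and 55.4, 53.1, 42.3 and 46.3 CPM in KPC IL6KO (log2 FC -3.22 ± 0.45, FDR = 8.26e-05 in KPC). Ppargc1b, a coactivator of mitochondrial genes, measured 15.2, 14.1 and 11.5 CPM in no tumor, 1.74, 3.25, 0.982 and 1.51 CPM in KPC, and 14.1, 12.7, 9.22 and 8.47 CPM in KPC IL6KO (-2.87 ± 0.34, FDR = 2.2e-05), and KPC libraries lay below all others for both genes. Acaa1b, the copy of Acaa1a, was at 1.16, 2.67 and 0.564 CPM in no tumor, 0.169, 0.753, 0.0818 and 0.0753 CPM in KPC, and 0.315, 0.0526, 0.220 and 0.497 CPM in KPC IL6KO, from 4 to 44 counts in a KPC library (-2.47 ± 0.80, FDR = 0.0165). Esrra, an estrogen-related receptor, fell (log2 FC -1.68 ± 0.21, FDR = 3.76e-05), and so did Oxct1, which activates ketone bodies (-1.70).

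Cpt1a, the liver form of carnitine palmitoyltransferase 1, measured 13.6, 13.4 and 11.4 CPM in no tumor, 10.7, 7.89, 7.49 and 7.08 CPM in KPC, and 17.8, 9.91, 13.7 and 11.3 CPM in KPC IL6KO, and fell in KPC against no tumor (-0.63 ± 0.20, FDR = 0.0171). Slc25a20, the carnitine carrier of the inner membrane, measured 76.95, 75.1 and 63.9 CPM in no tumor, 72.7, 84.7, 107 and 141 CPM in KPC, and 72.3, 76.4, 100.0 and 67.7 CPM in KPC IL6KO (0.49 ± 0.21, FDR = 0.0572) and was not called. Of 13 peroxisomal genes among the 37, 6 fell, beside 29% of all genes. Ehhadh, the other bifunctional enzyme, measured 11.6, 16.7 and 10.2 CPM in no tumor, 17.6, 20.2, 7.15 and 16.1 CPM in KPC, and 13.6, 9.59, 10.1 and 9.43 CPM in KPC IL6KO and was not called (0.24 ± 0.30, FDR = 0.486).

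In KPC IL6KO quadriceps 0 members were called against no tumor, and 0 had an unadjusted p under 0.05. The same test called 0% of all genes in either direction, with 887 of 12831 at an unadjusted p under 0.05, and DESeq2 called 30 higher and 66 lower in the whole table but 0 members. The log2 FC ran from -0.22 (Acsl5) to 0.47 (Acsl3), 23 of 33 were above 0, and the median was 0.09. The members without overlap numbered 2 (Crat and Acsl5), beside 15.5% of all genes. Acsl6, with the largest rise in KPC, had 0.10 ± 0.42, Eci2 0.28 ± 0.20 and Mlycd 0.35 ± 0.21. Of the 37 further genes 0 were called, and 8 had an unadjusted p under 0.05, Acot1 (1.93 ± 0.83, FDR = 0.650) and Pdk4 (1.04 ± 0.41, FDR = 0.595) among them. This comparison and that of KPC with no tumor share the 3 no tumor libraries.

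Set directly against KPC IL6KO, KPC quadriceps had 4 members higher and 3 lower, where 26.4% of all genes were called higher and 27.3% lower. The higher ones were Acsl6 (log2 FC 2.41 ± 0.40, FDR = 0.000268), Eci2 (1.27 ± 0.19, FDR = 0.000121), Echs1 (1.17 ± 0.13, FDR = 1.52e-05) and Mlycd (1.06 ± 0.19, FDR = 0.000431), and KPC libraries lay above KPC IL6KO libraries in each. The lower ones were Acsl5 (-1.07 ± 0.19, FDR = 0.000343), Acaa2 (-1.04 ± 0.32, FDR = 0.0130) and Acaa1a (-0.59 ± 0.16, FDR = 0.00705). Acaa2 overlapped through KPC replicate 4. Acaa1a, at the FC limit, was not called with RLE normalization or DESeq2 (log2 FC -0.57 in both) or in 5 of the fits that left out 1 library.

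Acadsb (0.57 ± 0.10, FDR = 0.000486), Acadl (0.56 ± 0.17, FDR = 0.0127) and Acadvl (0.49 ± 0.15, FDR = 0.0136) met the FDR here but not the FC limit, and Acsl3 met neither (0.53 ± 0.25, FDR = 0.0805). Over the 33 members 17 met the FDR alone, as did at least the 26.4% and 27.3% of all genes called higher and lower. Groups did not overlap in 10 members, a smaller share than the 62% of all genes. The median log2 FC was 0.05, beside -0.01 over all genes, with a range from -0.02 (without KPC IL6KO replicate 4) to 0.14 (without KPC replicate 1). Of the further genes 8 were higher and 12 lower in KPC, with Acot1 (3.20), Acot2 (2.60) and Pdk4 (2.52) at the upper end and Abcd2 (-2.73) and Ppargc1b (-2.57) at the lower. Quadriceps fiber markers summed to 152500 to 184172 CPM in KPC against 204186 to 218953 CPM in KPC IL6KO, and what this adds to the differences was not tested.

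In epididymal fat 0 members were called in any comparison, and the same test called 0% of all genes in each. Against no tumor 27 of 33 log2 FC were below 0 in KPC (median -0.36, beside -0.10 over all genes) and 26 of 33 in KPC IL6KO (median -0.12, beside -0.03). Between the tumor groups 25 of 33 were lower in KPC (median -0.22, beside -0.05). The smallest FDR of a member was 0.414 in KPC against no tumor, 0.518 in KPC IL6KO against no tumor and 0.797 between the tumor groups. An unadjusted p under 0.05 was reached by 0, 1 and 1 members, beside 2061, 1584 and 1062 of all genes. DESeq2 called 364 genes higher and 221 lower in KPC against no tumor and also 0 members. The members without overlap numbered 0 in KPC and 0 in KPC IL6KO against no tumor, where 10.9% and 2.01% of all genes did not overlap, and 2 between the tumor groups (Acads and Acaa1a), beside 4.33%. The coefficient of variation between replicates in the fit was 63.5% in fat and 22.7% in quadriceps.

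Marker sums differed widely between pads of a group, and their part in the values of the members was not tested. The 8 epididymis markers summed to 14039 to 83419 CPM in no tumor, 39684 to 63699 CPM in KPC and 742 to 88436 CPM in KPC IL6KO, and the 8 adipocyte markers to 1668 to 27494 CPM in no tumor, 2426 to 10729 CPM in KPC and 4669 to 17949 CPM in KPC IL6KO. No tumor replicate 6 had the most adipocyte RNA and also the highest sum over the 33 members (7489 CPM, where the other fat libraries ran up to 5455 CPM). Without it the median log2 FC of the members was -0.07 in KPC and 0.18 in KPC IL6KO, with 16 and 23 of 33 above 0. With only the libraries whose Gpx5 exceeded 1000 CPM (no tumor 5 and 7, all 4 KPC and KPC IL6KO 6) the direction turned to 23 and 27 of 33 above 0, with medians of 0.19 and 0.20, still with 0 calls. In that fit the KPC IL6KO group is 1 library, taken to vary like the others. With Gpx5 and Crisp1 as covariates the median against no tumor was -0.22 in KPC (7 of 33 above 0) and -0.35 in KPC IL6KO (6 of 33), and the members were mostly higher in KPC than in KPC IL6KO (24 of 33, median 0.14). The direction of the members in fat thus changed with the libraries kept and with the covariates. The 5 macrophage markers summed to 189 to 772 CPM in no tumor, 839 to 1281 CPM in KPC and 314 to 2179 CPM in KPC IL6KO, and their part in these values was not tested.

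**Figure D4:**
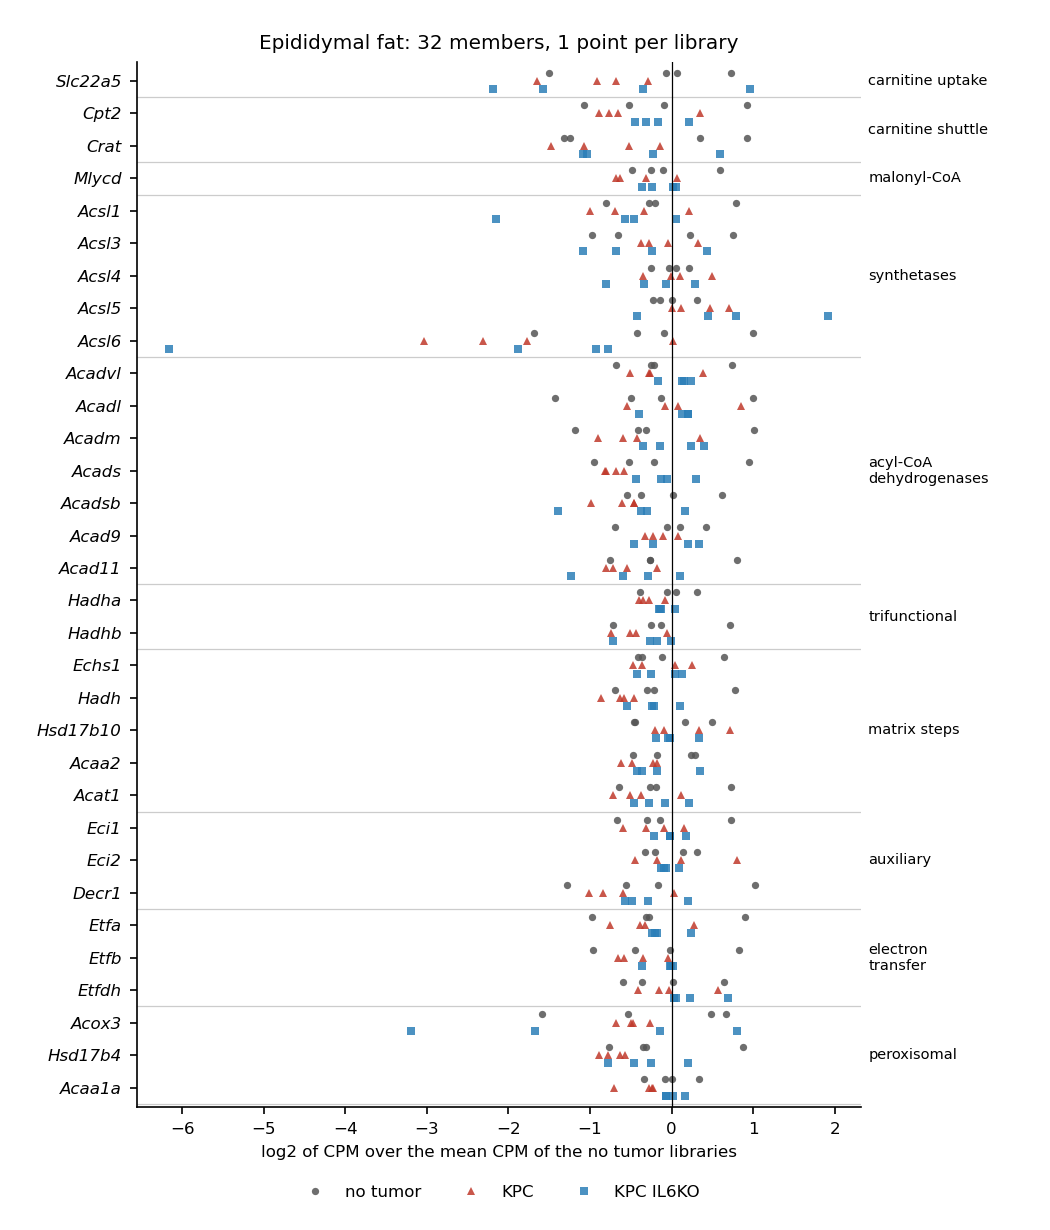
Each point is 1 epididymal fat library and the x axis is the log2 of its CPM over the mean CPM of the 4 no tumor libraries, for 32 members ordered by role (Cpt1b, near 0 CPM, is left out). The groups overlap for nearly every gene and the no tumor libraries spread as widely as the tumor libraries.

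The highest members by log2 FC in KPC fat were Acsl5, Hsd17b10 and Acadl. Acsl5 measured 80.8, 110.1, 76.03 and 88.8 CPM in no tumor, 123, 89.5, 96.7 and 145 CPM in KPC, and 336, 66.5, 121 and 154 CPM in KPC IL6KO (log2 FC 0.35 ± 0.40, FDR = 0.729 in KPC). KPC IL6KO replicate 5 held the most, and in that group the log2 FC against no tumor was 0.93 ± 0.40 with an unadjusted p of 0.0399 in the quasi-likelihood test. Hsd17b10 measured 69.2, 87.05, 45.3 and 44.8 CPM in no tumor, 102, 77.5, 53.5 and 57.95 CPM in KPC, and 77.8, 60.9, 59.8 and 53.9 CPM in KPC IL6KO (log2 FC 0.24 ± 0.26 in KPC). Acadl measured 95.1, 268, 49.5 and 123 CPM in no tumor, 241, 142, 91.7 and 127 CPM in KPC, and 154, 101, 147 and 154 CPM in KPC IL6KO (0.17 ± 0.45). The 3 groups overlapped in both genes. In KPC IL6KO, Etfdh and Acadvl came next after Acsl5. Etfdh measured 73.1, 113, 48.03 and 56.2 CPM in no tumor, 107, 65.02, 54.3 and 70.8 CPM in KPC, and 117, 74.1, 84.9 and 75.4 CPM in KPC IL6KO (0.28 ± 0.29 in KPC IL6KO). Acadvl measured 101, 196, 72.9 and 98.8 CPM in no tumor, 153, 96.5, 82.5 and 97.4 CPM in KPC, and 128, 105, 139 and 131 CPM in KPC IL6KO (0.10 ± 0.29).

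The lowest members in KPC fat were Acsl6, Cpt1b and Slc22a5. Acsl6 measured 7.86, 3.25, 9.88 and 21.03 CPM in no tumor, 1.28, 3.07, 10.6 and 2.11 CPM in KPC, and 0.147, 6.10, 5.53 and 2.84 CPM in KPC IL6KO (log2 FC -1.30 ± 0.96 in KPC and -1.52 ± 0.97 in KPC IL6KO). Cpt1b measured 0, 1.00, 0.116 and 1.39 CPM in no tumor, 0.0584, 0.229, 0.741 and 0 CPM in KPC, and 0.172, 0.171, 0.624 and 0.489 CPM in KPC IL6KO, close to the limit of detection in most libraries, where 3 counts are worth 0.0474 to 0.123 CPM (-1.29 ± 1.35 and -0.79 ± 1.33). Tumor libraries of Acsl6 reached below the no tumor range, and the groups overlapped in both genes. Slc22a5 measured 36.6, 108, 98.4 and 171 CPM in no tumor, 55.01, 32.9, 64.2 and 84.4 CPM in KPC, and 22.8, 34.7, 201 and 81.2 CPM in KPC IL6KO (-0.81 ± 0.64 in KPC). Acsl1, after Acsl6 and Cpt1b the lowest in KPC IL6KO, measured 830.3, 1751, 580.5 and 881 CPM in no tumor, 1170.4, 797, 623 and 504 CPM in KPC, and 227, 734, 1046 and 679 CPM in KPC IL6KO (-0.59 ± 0.48 in KPC IL6KO). No tumor replicate 6 was the highest library for Acsl1 and KPC IL6KO replicate 5 the lowest.

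The peroxisomal members were 3 of 3 lower in KPC fat, with a median log2 FC of -0.47, beside 17 of 20 and -0.33 for the mitochondrial members. Acox3 measured 588, 140.2, 665 and 289.9 CPM in no tumor, 263, 299, 349 and 303 CPM in KPC, and 46.1, 737, 382 and 131 CPM in KPC IL6KO (log2 FC -0.47 ± 0.71 in KPC). Its 3 highest libraries, no tumor 5 and 7 and KPC IL6KO 6, all had Gpx5 above 1000 CPM. All KPC libraries did as well, with Acox3 at 263 to 349 CPM, whereas KPC IL6KO 7, with Acox3 at 382 CPM, did not. A link of Acox3 to Gpx5 was not tested. Hsd17b4 measured 152, 348, 111 and 148 CPM in no tumor, 122, 127, 103 and 111 CPM in KPC, and 111, 159, 219 and 138 CPM in KPC IL6KO (-0.71 ± 0.33). Acaa1a measured 94.3, 118, 88.6 and 74.2 CPM in no tumor, 57.5, 79.3, 80.1 and 77.6 CPM in KPC, and 89.7, 105, 94.7 and 89.5 CPM in KPC IL6KO (-0.35 ± 0.17). In KPC all Acaa1a libraries were below those of KPC IL6KO (log2 FC -0.37 ± 0.17, FDR = 0.797), whereas they overlapped with no tumor.

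Of the 37 further genes 0 were called in fat. Pdk4 was the highest in KPC, with 8.92, 34.2, 3.79 and 22.7 CPM in no tumor, 299.9, 68.00, 24.4 and 49.8 CPM in KPC, and 59.4, 23.1, 60.3 and 142 CPM in KPC IL6KO (log2 FC 2.67 ± 0.90, FDR = 0.298), followed by Acot1 with 16.9, 8.75, 18.2 and 10.1 CPM in no tumor, 35.9, 20.9, 15.9 and 23.9 CPM in KPC, and 23.3, 25.8, 6.06 and 6.51 CPM in KPC IL6KO (0.84) and Ehhadh with 35.2, 86.9, 30.2 and 50.8 CPM in no tumor, 151, 44.4, 23.8 and 31.7 CPM in KPC, and 22.7, 52.5, 41.6 and 50.6 CPM in KPC IL6KO (0.31). KPC replicate 5 was the highest library of all 12 for each of the 3 genes. The lowest were Fabp3, a fatty acid binding protein (0.205, 1.76, 2.44 and 12.6 CPM in no tumor, 0.0876, 0.487, 2.86 and 0.780 CPM in KPC, log2 FC -2.02 ± 1.25, FDR = 0.569), Abcd2 (141, 731, 44.04 and 209.8 and 123, 71.3, 50.1 and 38.4 CPM, -1.99 ± 0.79, FDR = 0.360) and Acaca, which makes malonyl-CoA for fatty acid synthesis (147, 608, 88.2 and 164 and 103, 108, 98.4 and 83.8 CPM, -1.36 ± 0.54, FDR = 0.357). No tumor replicate 6 was the highest library for Abcd2 and Acaca. Cpt1a had a log2 FC of -0.07 ± 0.51 and Slc25a20 0.10 ± 0.29 in KPC fat.

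Whether the response to KPC differed between the tissues was tested in 1 fit of all 23 libraries over the 12599 genes in both tables. The difference, quadriceps minus fat, was called for 6 members, 5 more positive in quadriceps and 1 more negative, where 18.1% and 18.8% of all genes were called. The 5 were Acsl6 (log2 difference 3.69 ± 1.12, FDR = 0.0141), Mlycd (1.65 ± 0.34, FDR = 0.000819), Eci2 (1.28 ± 0.33, FDR = 0.00482), Acadsb (1.12 ± 0.38, FDR = 0.0241) and Echs1 (1.08 ± 0.31, FDR = 0.00922), and the 1 was Acsl5 (-1.75 ± 0.48, FDR = 0.00732). In fat Mlycd measured 27.9, 45.4, 21.5 and 25.2 CPM in no tumor, 31.4, 24.1, 19.4 and 18.6 CPM in KPC, and 23.3, 25.4, 31.1 and 30.2 CPM in KPC IL6KO. Eci2 there measured 88.6, 99.8, 64.3 and 70.2 CPM in no tumor, 141, 87.6, 58.9 and 71.3 CPM in KPC, and 73.9, 77.2, 85.6 and 75.5 CPM in KPC IL6KO. Groups overlapped in fat for both genes.

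Acadsb in fat measured 166, 332, 148 and 217 CPM in no tumor, 157, 156, 109 and 142 CPM in KPC, and 82.1, 166, 242 and 175 CPM in KPC IL6KO, and without no tumor replicate 6, its highest library, the difference between tissues lost its call (log2 0.84, FDR = 0.0579). Echs1 in fat measured 153, 258, 125 and 129 CPM in no tumor, 198, 170.4, 119.6 and 129 CPM in KPC, and 124, 171, 182 and 139.9 CPM in KPC IL6KO. Of the other members called in muscle, Acsl3 measured 91.7, 27.7, 63.2 and 34.4 CPM in no tumor, 41.9, 52.5, 44.6 and 68.1 CPM in KPC, and 46.04, 73.2, 25.6 and 33.8 CPM in KPC IL6KO in fat and Acaa2 148, 153, 110.2 and 90.00 CPM in no tumor, 111, 107, 81.3 and 89.7 CPM in KPC, and 96.97, 159.7, 111 and 93.6 CPM in KPC IL6KO, and their differences between tissues were not called (FDR = 0.150 and 0.115). Over all members the difference for KPC was above 0 in 26 of 33, with a median of 0.43, and without no tumor fat replicate 6 in 17 of 33, with a median of 0.04. For KPC IL6KO 0 members and 0% of all genes were called, 30 of 33 differences were above 0 (median 0.25) but only 14 of 33 without no tumor fat replicate 6 (median -0.11), and 1 member had an unadjusted p under 0.05 (Acsl5, -1.12 ± 0.48). The fit treated the muscle and fat libraries as different mice, which their titles do not state, and their RNA was prepared and sequenced apart.

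**Figure D5:**
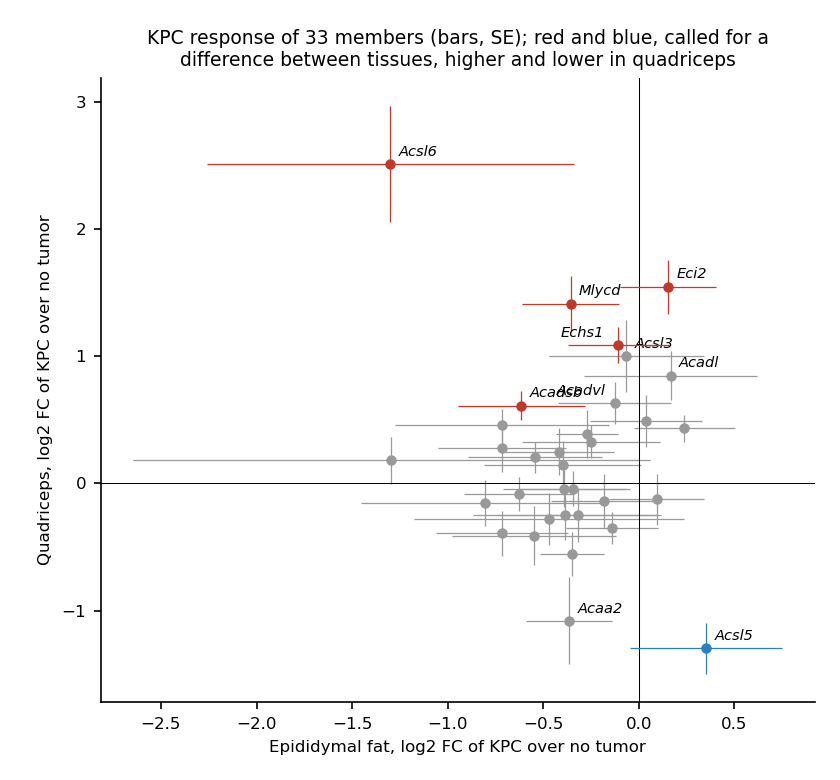
Log2 FC of KPC over no tumor in quadriceps (y axis) against the same in epididymal fat (x axis) for 33 members, with bars of 1 SE. Acsl6, Mlycd, Eci2, Acadsb and Echs1 (red) had a more positive and Acsl5 (blue) a more negative response in quadriceps than in fat, and horizontal bars are longer than vertical ones for most genes.

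Levels in no tumor mice differed among members by far more than any change with tumor. Per kilobase of exon, the highest members in quadriceps were Etfb (256 CPM), Acadvl (199) and Crat (179.7), and the lowest Acsl5 (2.26), Cpt1b (2.42) and Acsl4 (3.57). In fat the highest were Acsl1 (247 CPM), Etfb (126) and Hadh (122), and the lowest Cpt1b (0.217) and Acsl6 (1.67). The 3 peroxisomal members had 5.32 (Acox3), 24.8 (Hsd17b4) and 27.2 (Acaa1a) CPM per kilobase in quadriceps and 80.4, 70.8 and 53.3 in fat. The tables of the tissues were scaled separately, and levels were not tested between them.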

How the data were processed

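RNA of quadriceps (11 mice) and epididymal fat (12 mice) was sequenced, 1 library per mouse and tissue, and libraries were grouped by their titles. The authors deposited 1 table of unnormalized counts per tissue, made per the labels and the submitters' processing notes with FastQC, STAR, Subread, featureCounts 1.5.1 and edgeR 3.12.1 on genome build mm10, with genes of few counts already left out. The strand setting of the counting is not given in the sources used here. The paper's methods and the sample records name different library kits, one of which captures exons with probes, so levels of different genes are compared with caution. A further no tumor quadriceps sample, which the authors set aside as an outlier, was not used here.

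Each tissue was fitted on its own, with all 3 groups in the model, by the quasi-likelihood test of edgeR 4.0.16 in R 4.3.3, after TMM normalization and filterByExpr, which removed no gene. Calls needed a Benjamini-Hochberg FDR of at most 0.05 over the whole table and an FC of at least 1.5. The difference between tissues was the interaction in 1 fit of 23 libraries. DESeq2 1.42.0 and pandas 2.3.3, numpy 2.4.6 and matplotlib 3.10.9 under Python 3.11.15 served the alternatives, summaries and plots. Lengths and positions came from the GRCm38 annotation, by symbol, and upstream sequences from RefSeq (GRCm38.p6). The test was checked on simulated data. Depth set a floor of 3 counts, worth 0.0462 to 0.154 CPM in quadriceps and 0.0474 to 0.123 CPM in fat, which covers counting error only.

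All 33 members are named, with values by library for those called in any comparison, the peroxisomal members, Cpt1b and the 3 highest and 3 lowest by log2 FC in each comparison of fat with no tumor. Of the 37 further genes, values are given for the 3 highest and 3 lowest in KPC and for Cpt1a, Slc25a20 and Ehhadh. Their list held 1 more gene, which is not reported here and is left out of every count of that list. The members, lists and tests were chosen with earlier results of these data known. Alternatives were DESeq2, the edgeR likelihood ratio test, the newer quasi-likelihood fit, RLE normalization, no filter, a minimum of 10 counts in every library, a fit of only the 2 groups compared, a replicate block, each library left out in turn and, in fat, Gpx5 and Crisp1 (log2 CPM) as covariates or only libraries with Gpx5 above 1000 CPM. P-values measure the spread between mice.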

Additional observations from a re-analysis of the deposited data

Results flagged for a closer look

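In 207 groups of 4 libraries (members and the further genes for which values are given), 19 held a library far from the other 3 by Dixon's criterion, 11 of them in members. Chance gives about 1 in 20 groups.

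KPC IL6KO replicate 3 of quadriceps was the far library in 6. Its values against the range of the other 3 libraries were high in Cpt2 (135 CPM against 92.04 to 97.7 CPM), Acadl (425 CPM against 277 to 279 CPM), Eci2 (111 CPM against 60.9 to 65.3 CPM), Decr1 (155 CPM against 114 to 121 CPM), Acot1 (7.88 CPM against 1.05 to 1.48 CPM) and Acot2 (35.3 CPM against 11.95 to 13.8 CPM). The other far libraries in quadriceps were in Acox3 (KPC IL6KO replicate 4, 28.2 CPM against 32.02 to 32.8 CPM), Ehhadh (KPC IL6KO replicate 1, 13.6 CPM against 9.43 to 10.1 CPM) and Acaa1b (KPC replicate 2, 0.753 CPM against 0.0753 to 0.169 CPM).

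In fat, KPC replicate 5 was the far library in 4, namely in Cpt2 (95.5 CPM against 40.5 to 47.5 CPM), Acaa1a (57.5 CPM against 77.6 to 80.1 CPM), Ehhadh (151 CPM against 23.8 to 44.4 CPM) and Pdk4 (299.9 CPM against 24.4 to 68.00 CPM). The others in fat were Acadl (KPC IL6KO replicate 6, 101 CPM against 147 to 154 CPM), Hadha (KPC IL6KO replicate 7, 201 CPM against 176 to 177 CPM), Etfa (KPC IL6KO replicate 7, 198 CPM against 142 to 148 CPM), Etfb (KPC IL6KO replicate 6, 86.8 CPM against 111 to 113 CPM), Fabp3 (KPC IL6KO replicate 8, 9.20 CPM against 0.892 to 2.04 CPM) and Acaca (no tumor replicate 6, 608 CPM against 88.2 to 164 CPM). No tumor replicate 6, far in Acaca, also had the most adipocyte marker RNA.

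Among the members and the further genes for which values are given, the interaction test called a difference in the response to KPC between quadriceps and fat for 9. Of all genes 18.1% were called more positive and 18.8% more negative in quadriceps. The log2 difference, quadriceps minus fat, was 3.69 for Acsl6, 1.65 for Mlycd, 1.28 for Eci2, 1.12 for Acadsb, 1.08 for Echs1 and -1.75 for Acsl5. Of those further genes it was 4.17 for Acot1, 3.501 for Acot2 and -2.75 for Ppargc1b.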

How the results depend on the processing

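No called log2 FC of a member changed sign. Of 484 pairs of a called value and an alternative, 469 kept the call and 15 lost it, and 18 of 23 called values kept it throughout. Without 1 library, members called lower ranged from 1 (without no tumor replicate 1) to 4 (without KPC replicate 4) in KPC against no tumor quadriceps, from 2 to 6 in KPC against KPC IL6KO (5 without KPC replicate 2, 6 without KPC replicate 4) and from 1 to 2 in the difference between tissues (2 without quadriceps KPC replicate 4). Members called higher ranged from 7 to 8, from 4 to 6 and from 4 to 7. DESeq2 and RLE normalization each gave 6 higher and 2 lower in KPC against KPC IL6KO, adding Acadl and Acadsb and losing Acaa1a. Counts of 0 in KPC IL6KO quadriceps and in fat stayed 0 under every alternative run. With a replicate block quadriceps had 7 higher and 3 lower in KPC against no tumor and 4 and 4 against KPC IL6KO (adding Decr1). The replicate numbers were not taken to pair mice. Deviations from the group mean in same-numbered libraries correlated at -0.15 to 0.26 in quadriceps and -0.54 to 0.65 in fat. They correlated above 0.1 in 2 of 10 and 7 of 12 such pairs. Of the libraries, 4 of 11 and 3 of 12 correlated best with their own number in another group. These values cannot exclude an origin shared by number. Median log2 FC in fat moved to 0.19 (KPC against no tumor, high Gpx5 only) and 0.14 (KPC against KPC IL6KO, Gpx5 and Crisp1 as covariates). The cause of the other changes was not tested. Replicates varied more in fat (a coefficient of variation of 63.5%) than in quadriceps (22.7%), and in the lowest genes (Cpt1b in fat, Acaa1b in quadriceps) a few counts decide the value.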
